A study of Mus musculus with 64 samples.

Results

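The genes described are 10 genes of autophagy, taken by symbol from the count table of 48795 genes: Sqstm1, Optn, Map1lc3a, Map1lc3b, Gabarapl1, Atg7, Atg5, Becn1, Tfeb and Lamp1. All 10 had a row and all 10 passed the filter on low counts in striatum and in cortex. Autophagy encloses cytoplasm, damaged organelles or protein aggregates in a double membrane, the autophagosome, which then fuses with the lysosome where the content is digested. A set of ATG proteins attaches small ubiquitin-like proteins of the ATG8 family to the growing membrane, and cargo receptors bind these on one side and ubiquitin-tagged cargo on the other. In neurons, which do not divide, the pathway is a main route for removing aggregated proteins, and mutant huntingtin is among its known cargoes.

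RNA from striatum and cerebral cortex was sequenced in 32 C57BL/6 mice aged 6 months. The labels gave 4 genotypes of 8 mice (4 females and 4 males): wild type; Polq+/-, with 1 copy of Polq, the gene of DNA polymerase theta; Q140, heterozygous for the Q140 knock-in, which lengthens the CAG repeat of the mouse huntingtin gene Htt; and Q140 Polq+/-, which carried both. Such mice are a model of Huntington's disease, whose earliest losses are among striatal projection neurons. Every mouse gave 1 library per tissue, 64 in all, so replicates were separate animals, and no group carried an allele that all others shared.

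The library totals ran from 28.7 to 40.6 M counts in striatum and from 30.9 to 40.1 M in cortex. The tissue labels matched their markers: 8 markers of striatum summed to 7821 to 9230 CPM (counts scaled to a common library size with edgeR's TMM factors, as throughout) in wild-type striatum and to 184.7 to 207.5 CPM in wild-type cortex. Polq ran from 2.46 to 4.08 CPM in wild-type striatum, from 0.376 to 2.42 in mice labelled Polq+/- and from 0.187 to 2.36 in those labelled Q140 Polq+/-. Of these 16 mice labelled Polq+/-, 4 had very low Polq, so the name stands below for the label. A further 3 striatal libraries stood apart. Wild-type male 2 had the highest sum of cerebellar granule cell markers (154.7 CPM, the next striatal library 27.2), and Polq+/- female 3 the highest sum of choroid plexus markers (1357 CPM, the next 43.6). Wild-type male 3 deviated most strongly with gene length, measured from the median of each gene over all striatal libraries. Its slope was -0.0963 in log2 CPM per doubling of length, and that of the next lowest library -0.0088. Among wild-type striata male 3 had the highest Sqstm1, Map1lc3a, Map1lc3b, Becn1, Atg5 and Lamp1 and the lowest Atg7 and Gabarapl1. Some striatal results are therefore also given without it or without all 3 of these libraries.

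Many lysosome and autophagy genes carry CACGTG, an E-box letter string that TFEB and related factors are known to bind, near their start sites. The string was searched in windows of 250 bases before to 50 after each RefSeq start site (GRCm38.p6), where both strands read the same letters. Of the 10 genes, 8 matched an entry, and 3 of these 8 (Lamp1, Atg5 and Atg7) held the string, against 8.09% of all genes with an entry. Of the 8 lists described further on, 11 of 21 lysosome genes and 3 of 6 genes of the nucleation complex held it. So did 3 of 12 cargo receptor genes, 1 of 8 of ATG8 conjugation and 1 of 7 transcription regulators. In the other lists 0 of 4 genes of the initiation complex, 0 of 8 of membrane supply and 0 of 6 of fusion did. Lamp1 held 4 copies, starting 61, 45, 28 and 15 bases before the start site, and 8 of 32851 windows (0.0244%) had 4 or more. The longer string TCACGTGA was in none of the 8 genes and in 0.974% of all windows. The Atg7 window lies 27999 bases inside the gene as GENCODE M21 draws it, so it is not printed. The bases just before the start sites of Lamp1 (chr8:13159086-13159160, plus strand) and Atg5 (chr10:44268309-44268338, plus strand) are shown with the E-box in capitals, and those of Sqstm1 (chr11:50210821-50210970, minus strand, read in the direction of transcription) are shown for comparison because Sqstm1 changed in the striatum and held none. The last 7 bases of the Sqstm1 stretch fall in its first exon in GENCODE M21.
Lamp1: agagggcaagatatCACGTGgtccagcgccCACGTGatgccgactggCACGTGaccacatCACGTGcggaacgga
Atg5: agggcggagcgcttgcCACGTGgtcttggt
Sqstm1: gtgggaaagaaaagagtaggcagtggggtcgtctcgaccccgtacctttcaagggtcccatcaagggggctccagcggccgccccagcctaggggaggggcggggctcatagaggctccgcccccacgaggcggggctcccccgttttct
A match is a match of letters and no measure of binding. In the striatal Q140 comparisons that follow, Atg7, which held the string, and Sqstm1, which did not, were called, and Lamp1 and Atg5, which held it, were not.

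The first question was which of these transcripts differ in the striatum of mice with the expanded Htt allele. Sqstm1 and Atg7 rose in Q140 against wild type, and again in Q140 Polq+/- against Polq+/-, a comparison that shares no library with the first. The other 8 genes were not called in either comparison (called means an adjusted p under 0.05 in edgeR's quasi-likelihood test, over all 18270 genes tested). The 2 of 10 called have to be read against the whole striatum, where 32.1% of all genes tested were called in the first comparison and 31.4% in the second, 16.9% and 16.1% as higher. In size, the median change of the 10 genes regardless of sign was 0.014 on the log2 scale in the first comparison and 0.054 in the second, while over all genes tested it was 0.12 and 0.11. With TMM scaling the median gene of the 10 thus moved less than the median gene of the striatum. Sizes regardless of sign also hold measurement error, and its part in this gap was not tested. In the first comparison the SE ran from 0.022 (Gabarapl1) to 0.092 (Optn) among the 10, with a median of 0.061 over all genes. In Polq+/- against wild type, where 0.0493% of genes were called, the median size was 0.023 for the 10 and 0.045 for all genes. On unscaled FPKM 4 and 6 of the 10 were called, beside 39.3% and 40.1% of all genes on log2(FPKM + 1), as given further on. In bulk tissue fewer cells of a type and less RNA per cell cannot be told apart.

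**Figure D1:**
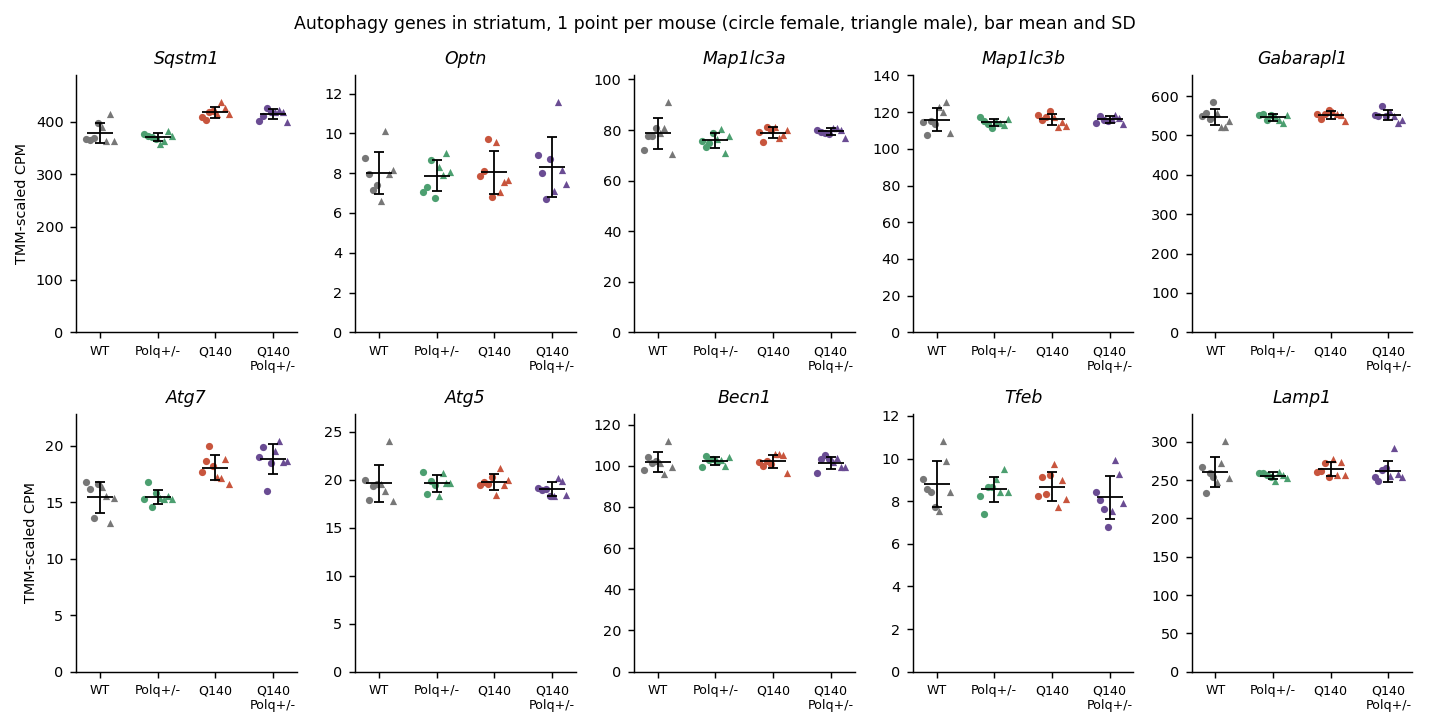
TMM-scaled CPM of each autophagy gene in striatum (vertical axes from 0, 1 panel per gene) by genotype, with 1 point per mouse and the mean and SD as black bars (n = 8). Sqstm1 and Atg7 sit higher in the Q140 and Q140 Polq+/- columns, by 10.3% to 21.4% in the fits. In the Q140 comparisons the ranges overlap in every panel except Sqstm1 in Q140 Polq+/- against Polq+/-.

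Sqstm1 encodes p62, the cargo receptor that gathers ubiquitin-tagged aggregates and is itself degraded by autophagy. The gene lies on chr11:50199366-50210827 (minus strand, ENSMUSG00000015837) and had 11494 to 17087 counts per striatal library. Its level in wild-type striatum ran from 363.7 to 414.9 CPM with a median of 367.5. In Q140 striatum it ran from 402.4 to 436.8 CPM with a median of 416.2. All 8 Q140 mice lay above the wild-type median, and the groups overlapped only through wild-type male 3, since the other 7 wild types reached 396.8 CPM. The log2 fold change was 0.14 ± 0.026 (SE), a rise of 10.3%, with an adjusted p of 5.55e-05 in edgeR, and without wild-type male 3 it was 0.16. In Polq+/- striatum Sqstm1 ran from 357.0 to 381.4 CPM (median 371.7), and in Q140 Polq+/- from 398.8 to 425.5 CPM (median 418.4). These ranges did not overlap. Here the log2 fold change was 0.16 ± 0.026, a rise of 11.9%, with an adjusted p of 6.41e-06.

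Atg7 encodes the E1-like enzyme that activates ATG12 and the ATG8 proteins, the step that opens both conjugation chains. The gene spans chr6:114643097-114860614 (plus strand, ENSMUSG00000030314) and had 481 to 796 counts per striatal library. Wild-type striatum held 13.2 to 16.8 CPM of it (median 15.8) and Q140 striatum 16.6 to 19.98 CPM (median 17.9). All 8 Q140 mice were above the wild-type median, and only the lowest Q140 mouse fell below the highest wild type. The log2 fold change was 0.22 ± 0.050, a rise of 16.9%, with an adjusted p of 5.13e-04 in edgeR. Polq+/- striatum held 14.6 to 16.7 CPM (median 15.4) and Q140 Polq+/- striatum 15.9 to 20.4 CPM (median 18.8). Of the Q140 Polq+/- mice, 7 lay between 18.5 and 20.4 CPM and female 3 lay apart at 15.9. The log2 fold change was 0.28 ± 0.050, a rise of 21.4%, with an adjusted p of 2.59e-05.

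Both rises were called in each of the 46 other settings tried per comparison, which included each sex alone, each library left out in turn, and other scalings and tests. Across them the Sqstm1 change stayed between 0.12 and 0.20 in the first comparison and between 0.15 and 0.23 in the second, and that of Atg7 between 0.19 and 0.28 and between 0.23 and 0.35. With the column of the labelled well address as a term, Sqstm1 was at 0.12 and Atg7 at 0.26 in the first comparison. For Sqstm1 this was the lowest value of the 46 settings. Genotypes were spread unevenly over the striatal well columns. The first column held wild-type but no Q140 libraries, and the last held Q140 Polq+/- but no Polq+/- libraries. Genotype and well column were thus partly mixed in both comparisons. In females alone the first comparison gave 0.14 for Sqstm1 and 0.24 for Atg7, and in males alone 0.14 and 0.21. Sqstm1 shares 17.28% of its exon bases with Mrnip on the other strand, whose median count in striatum was 1.07% of that of Sqstm1. Mrnip was not called in the first comparison (0.16) and was called higher in the second (0.30, adjusted p 0.0142 in edgeR). HTSeq's strand setting was not given, and the part of reads from the shared bases was not tested. Atg7 shares none with another gene.

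Optn encodes optineurin, a cargo receptor for damaged mitochondria and aggregates that the kinase TBK1 activates. It lies on chr2:5020642-5064051 (minus strand) and had 207 to 388 counts per striatal library. It was scarce, at 8.01 ± 1.08 CPM (SD, n = 8) in wild type, 8.04 ± 1.07 in Q140, 7.88 ± 0.784 in Polq+/- and 8.32 ± 1.51 in Q140 Polq+/-. The ranges overlapped throughout. Its log2 fold change was 0.0033 (95% interval -0.18 to 0.19) in the first comparison and 0.079 (-0.11 to 0.27) in the second, the widest intervals of the 10 genes, so a change of the size seen in Sqstm1 was not detectable here.

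Map1lc3a, Map1lc3b and Gabarapl1 belong to the ATG8 family, the proteins that are joined to lipid on the autophagosome membrane and that cargo receptors hold on to. They lie on chr2:155276297-155278073, chr8:121590361-121598760 and chr6:129533160-129542346, all on the plus strand. Map1lc3b averaged 115.9 ± 6.38 CPM in wild type, 116.1 ± 3.001 in Q140, 114.4 ± 1.91 in Polq+/- and 116.0 ± 1.72 in Q140 Polq+/-. Gabarapl1 stood at 546.0 ± 20.7, 552.0 ± 9.27, 545.9 ± 8.48 and 551.2 ± 13.1 CPM in the same order. For both, the 95% interval of the log2 fold change lay between -0.052 and 0.073 in the striatal Q140 comparisons. Map1lc3a was at 78.7 ± 6.23 CPM in wild type and 79.0 ± 2.18 in Q140, a log2 fold change of 0.0062 (-0.062 to 0.075). In the second comparison it ran from 70.9 to 80.2 CPM (median 76.1) in Polq+/- and from 76.8 to 81.0 CPM (median 79.6) in Q140 Polq+/-, and all 8 of the latter lay above the Polq+/- median. That change of 0.064 (-0.0043 to 0.13) had an adjusted p of 0.154 in edgeR with all 32 libraries. It passed, at 0.0397, when wild-type male 3 was left out of the shared fit (0.070), and at 0.0486 when only the genotypes compared were fitted.

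**Figure D2:**
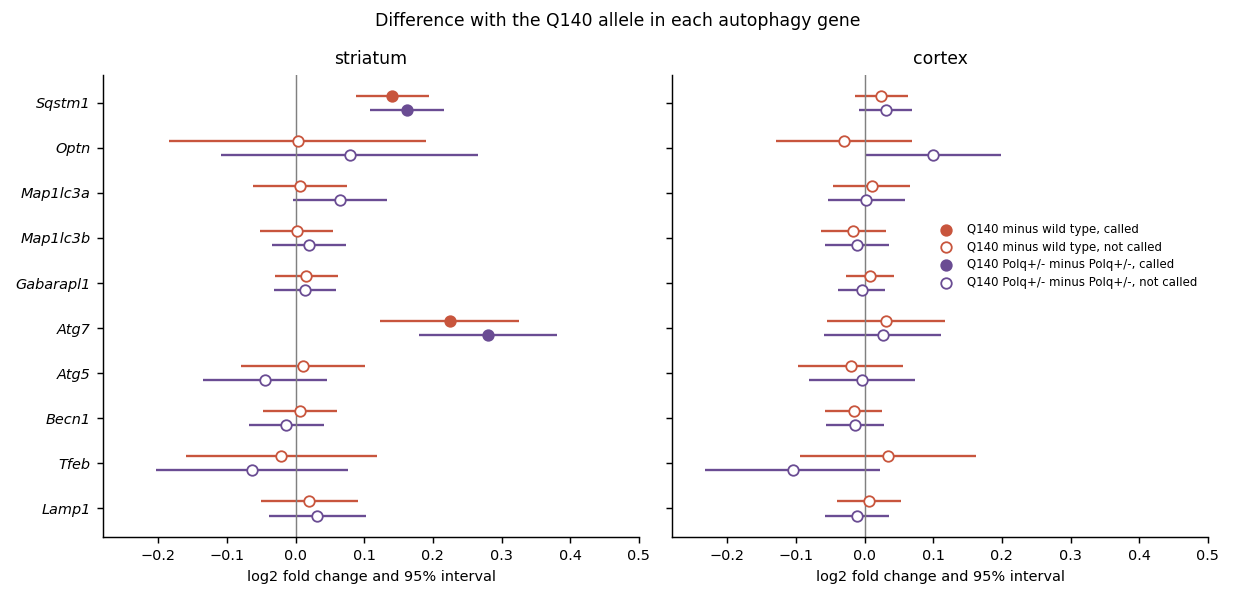
Log2 fold change (horizontal axis) of each autophagy gene with the Q140 allele in striatum (left) and cortex (right), with its 95% interval from edgeR. Filled points passed an adjusted p of 0.05: these are Sqstm1 at 0.14 and 0.16 and Atg7 at 0.22 and 0.28, all in striatum.

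Atg5 encodes the partner to which ATG12 is joined, and with ATG16L1 the pair places ATG8 proteins on the membrane. It lies on chr10:44268358-44364291 (plus strand). Its mean in striatum was 19.6 ± 1.94 CPM in wild type, 19.8 ± 0.808 in Q140, 19.6 ± 0.881 in Polq+/- and 19.1 ± 0.718 in Q140 Polq+/-. The first log2 fold change was 0.011 (-0.079 to 0.10) and the second -0.044 (-0.13 to 0.046). Thus Atg7 rose in the same libraries in which Atg5, further down the same chain, was not called. Becn1 encodes beclin 1, a subunit of the lipid kinase complex that starts the membrane. It lies on chr11:101285952-101302286 (minus strand). It stayed between group means of 101.5 and 102.4 CPM in striatum, with changes of 0.0066 (-0.048 to 0.061) and -0.013 (-0.067 to 0.041). Becn1 shares 43.93% of its exon bases with Cntd1 on the other strand, whose median count in striatum was 0.893% of that of Becn1.

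Tfeb encodes the transcription factor that drives many lysosome and autophagy genes, and its activity is known to be set largely by its location in the cell. It lies on chr17:47737030-47792419 (plus strand), and its mRNA was low in striatum, at 8.80 ± 1.09 CPM in wild type, 8.68 ± 0.686 in Q140, 8.55 ± 0.604 in Polq+/- and 8.19 ± 1.003 in Q140 Polq+/-. The changes were -0.021 (-0.16 to 0.12) and -0.064 (-0.20 to 0.076). Lamp1 encodes a main glycoprotein of the lysosome membrane and is widely used to mark lysosomes. It lies on chr8:13159161-13175338 (plus strand). It averaged 260.7 ± 20.1 CPM in wild type, 264.2 ± 9.13 in Q140, 255.9 ± 4.15 in Polq+/- and 261.6 ± 13.6 in Q140 Polq+/-. The changes were 0.020 (-0.051 to 0.090) and 0.032 (-0.039 to 0.10). Neither gene was called, so the Lamp1 window with its 4 E-box strings stood beside a transcript with no called change.

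The deposited FPKM values are not scaled between libraries beyond their totals, and they shift this picture upward. Scaling factors ran from 0.9595 to 1.009 in wild-type striatum and from 1.007 to 1.037 in Q140 striatum. With limma on log2(FPKM + 1), Gabarapl1 and Becn1 were also called as higher in Q140 against wild type (0.076 and 0.063), and Map1lc3a, Map1lc3b, Gabarapl1 and Lamp1 in Q140 Polq+/- against Polq+/-. Of all genes tested 39.3% were then called in the first comparison and 40.1% in the second. Over all genes tested the median shifted from 0.0018 to 0.040, and the share of calls that were higher from 52.7% to 74.8%, in the first comparison. In the second that share of higher calls shifted from 51.3% to 75.9%. Sqstm1 and Atg7 were therefore the only genes of the 10 called as higher under every scaling tried.

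Other cell types moved in the same libraries, and their part in the rises of Sqstm1 and Atg7 was not tested. Summed striatal markers ran from 7821 to 9230 CPM in wild type and from 4986 to 5781 in Q140, with 7 of 8 called as lower. Microglial markers ran from 409.2 to 445.9 CPM and from 362.5 to 410.5, with 6 of 8 called as lower, and endothelial markers from 150.5 to 166.5 and from 125.1 to 145.0, with 6 of 6 lower. Mural cell markers ran from 142.9 to 156.8 CPM and from 107.3 to 133.7, with 4 of 5 lower. Astrocyte markers (3296 to 4240 and 3424 to 3727 CPM, 1 of 7 lower) and pan-neuronal ones (4680 to 5224 and 4817 to 5099 CPM, 2 of 6 lower) overlapped. Oligodendrocyte markers overlapped, from 5636 to 7501 and from 5353 to 6596 CPM, with 3 of 7 lower. In Q140 Polq+/- against Polq+/-, 8 of 8 striatal markers were called (7 lower), 4 of 6 endothelial, 2 of 5 mural, 3 of 7 astrocyte, 1 of 6 pan-neuronal, 3 of 7 oligodendrocyte and 0 of 8 microglial ones (all 8 changes between -0.12 and -0.035). All of these markers had counts in every striatal library. Without the 3 libraries that stood apart, 5 of 8 microglial markers were called as lower in the first comparison and 2 of 8 in the second. On log2(FPKM + 1) the numbers called as lower in the first comparison were 2 of 8 for microglia, 5 of 6 for endothelium and 3 of 7 for oligodendrocytes, and in the second 0, 0 and 3.

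The rest of the machinery was described through 89 other genes in 8 lists, all of which passed the filter. In Q140 against wild type 18 rose and 16 fell, together 38.2% of the 89, beside 32.1% of all genes. In Q140 Polq+/- against Polq+/- 17 rose and 17 fell, again 38.2%. The median change over the 89 was 0.0043 and 0.00082, beside 0.0018 and 0.0051 for all genes. Called in the same direction in both comparisons were 15 higher and 12 lower genes, 79.4% of the calls in each comparison, and none was called in opposite directions. Over all genes 23.3% were called in the same direction in both, which is 72.5% of the calls in the first and 74.2% in the second. The lists thus held rises and falls side by side, as the plot of the 8 lists shows. On log2(FPKM + 1), which carries the upward shift given above, 40 rose and 6 fell in each comparison, so most of the falls described next are relative to TMM scaling. On that scale 39.3% of all genes were called in the first comparison and 40.1% in the second. Without the 4 mice of very low Polq 9 rose and 12 fell in the second comparison, beside 2412 and 2203 of all 18561 genes then tested. With the well column as a term 12 rose and 17 fell in the first comparison, beside 2796 and 2539 of all genes. In the second 12 rose and 15 fell, beside 2641 and 2623. Without the 3 libraries that stood apart 18 rose and 19 fell in the first, and 20 rose and 19 fell in the second, where 33.3% and 33.9% of all genes were called.

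**Figure D3:**
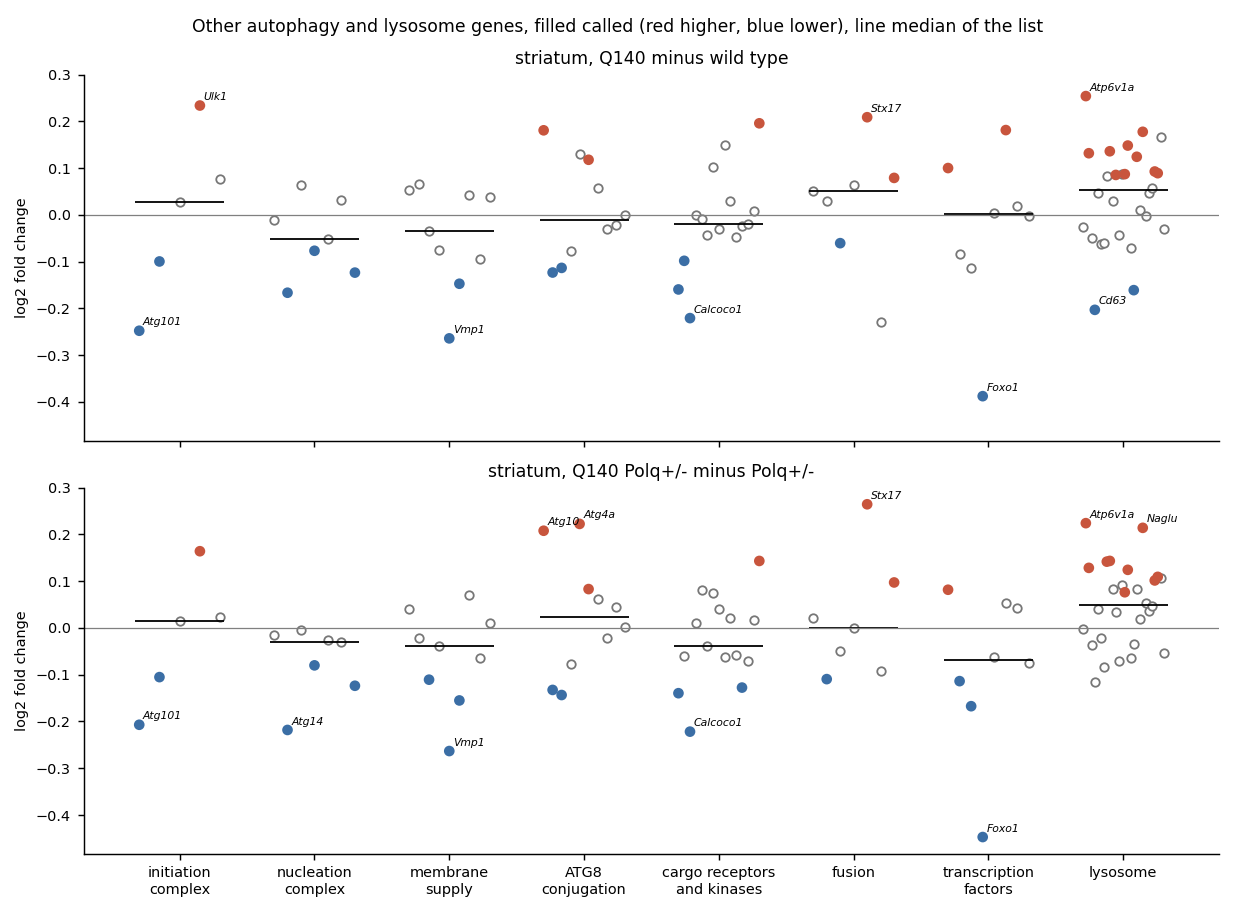
Log2 fold change (vertical axis) of 89 other autophagy and lysosome genes in striatum, by list, for Q140 minus wild type (top) and Q140 Polq+/- minus Polq+/- (bottom). Filled points were called (red higher, blue lower), lines are list medians, and the genes farthest from 0 are named; Foxo1 at -0.39 and -0.45 lies lowest.

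Autophagy is started by the ULK1 kinase complex, and its parts moved both ways (3 rose and 1 fell in each comparison on log2(FPKM + 1)). Ulk1, the kinase, rose from 61.9 ± 4.00 to 72.8 ± 2.48 CPM (log2 fold change 0.23, adjusted p 6.45e-07 in edgeR), and by 0.16 in the second comparison. Atg101, which stabilises ATG13, fell from 19.9 ± 1.34 to 16.8 ± 0.893 CPM (-0.25, adjusted p 3.02e-06), and by 0.21 in the second. Atg13, the adaptor of the kinase, fell by 0.10 and 0.11. Ulk2 and Rb1cc1 were not called in either.

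In the nucleation complex, where Becn1 works, no gene rose and 3 of 7 fell in each comparison (1 rose and 1 fell, then 0 and 1, on log2(FPKM + 1)). They were Atg14 (-0.17 and -0.22), which directs the complex to the site of membrane formation, Uvrag (-0.12 and -0.12), its alternative partner, and Pik3c3 (-0.077 and -0.080), the lipid kinase. Among the 9 genes of membrane supply, Vmp1, an endoplasmic reticulum protein needed for membrane growth, fell from 103.0 ± 8.68 to 85.8 ± 3.57 CPM (-0.26 in both). Wdr45, which binds the lipid made by the kinase, fell by 0.15 and 0.16. Atg9a, the lipid scramblase carried on vesicles, was called in the second comparison (-0.11), with -0.035 in the first. On log2(FPKM + 1) the membrane supply list gave 4 higher and 1 lower, and 3 and 1.

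Around Atg7 the conjugation genes split under TMM scaling. On log2(FPKM + 1) 4 rose and 0 fell in the first comparison, and 5 rose and 1 fell in the second. Atg4b, a protease that trims ATG8 proteins, rose (0.12 and 0.083), as did Atg10 (0.18 and 0.21), the E2-like enzyme that joins ATG12 to ATG5. Atg12 itself fell (-0.12 and -0.13), as did Atg16l1 (-0.11 and -0.14), its scaffold. Atg4a, a further trimming protease, was called in the second comparison (0.22), with 0.13 in the first. Atg3, the E2-like enzyme that receives ATG8 proteins from ATG7, and the ATG8 genes Gabarap and Gabarapl2 were not called, with changes between -0.077 and 0.045. Atg7 was thus called higher together with Atg10 and Atg4b in both comparisons.

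Beside Sqstm1 and Optn, 15 cargo receptors and their kinases were measured. Calcoco1, an ER and Golgi cargo receptor, fell (-0.22 in both), and Bnip3, a mitochondrial receptor, fell by 0.16 and 0.14. Wdfy3, the large scaffold (ALFY) that links p62 bodies to the membrane, rose by 0.20 and 0.14. Nbr1 and Tax1bp1, receptors that work with p62, were at -0.044 and -0.039 and at -0.046 and -0.058, and were not called. Tbk1 was at -0.023 in the first comparison and fell by 0.13 in the second. Bnip3l was called in the first (-0.098), with -0.059 in the second. On log2(FPKM + 1) the list gave 5 higher and 1 lower, and 6 and 1.

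For fusion with the lysosome, the SNARE genes Stx17 (0.21 and 0.26) and Ykt6 (0.079 and 0.097) rose. Rab7, the GTPase of late endosomes, was called in the first comparison (-0.061), with -0.050 in the second, and Plekhm1 in the second (-0.11), with 0.030 in the first. Among the transcription regulators Foxo1 changed most, from 181.3 ± 22.7 to 138.4 ± 8.29 CPM (-0.39, adjusted p 2.59e-06 in edgeR) and by -0.45 in the second comparison. Flcn, which controls the entry of TFEB and TFE3 into the nucleus, rose by 0.10 and 0.082. Mitf was called in the first (0.18), with 0.053 in the second, while Fnip1 and Fnip2, partners of FLCN, were called in the second (-0.11 and -0.17), with -0.083 and -0.11 in the first. Tfe3, the closest relative of Tfeb, was at 0.019 and 0.043 and not called. On log2(FPKM + 1) the fusion list gave 4 higher and 0 lower, and 2 and 0. The regulators gave 3 higher and 1 lower, and 2 and 1.

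Lysosome genes rose more often than they fell: 10 rose and 2 fell of 28 in the first comparison, and 9 rose and 0 fell in the second. The calls were 42.9% and 32.1% of the list, beside 32.1% and 31.4% of all genes, so in the second comparison the share called was near that of all genes. Their median change was 0.053 and 0.050, beside medians of 0.0018 and 0.0051 over all genes. Atp6v1a, a proton pump subunit, changed most in both comparisons, rising from 251.7 ± 5.77 to 300.2 ± 8.68 CPM (0.25, adjusted p 1.37e-11 in edgeR; 0.22 in the second). Atp6v1b2, a further subunit, rose by 0.13 in both. Grn (progranulin) rose by 0.15 and 0.12, Ctsl (cathepsin L) by 0.14 and 0.14 and Psap (prosaposin) by 0.093 and 0.10. Lamp1 was not called (0.020 and 0.032), but its 95% intervals (-0.051 to 0.090 and -0.039 to 0.10) included the median changes of this list. Without wild-type male 3 the 28 genes gave 10 higher and 1 lower in the first comparison and 11 and 0 in the second, and without the 3 libraries that stood apart the same counts. On log2(FPKM + 1) they gave 16 higher and 1 lower, and 19 and 0.

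Taking all 16 Q140 carriers against all 16 other mice, 44.8% of all genes in striatum were called and again Sqstm1 and Atg7 alone of the 10. Sqstm1 was at 0.15 ± 0.019 (adjusted p 1.44e-08 in edgeR) and Atg7 at 0.25 ± 0.035 (adjusted p 1.96e-07). The remaining 8 lay between -0.042 (Tfeb) and 0.041 (Optn). Map1lc3a was at 0.035, and passed (0.055, adjusted p 0.0184) without wild-type male 3.

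The label Polq+/- was examined next, with and without the Q140 allele. None of the 10 genes was called in either comparison in striatum, where 0.0493% of genes were called in Polq+/- against wild type and 0.0547% in Q140 Polq+/- against Q140, and none had an unadjusted p under 0.05 in edgeR. DESeq2 and limma voom gave 0 as well. Polq itself, at low counts, was not called in striatum either, at -0.90 and -1.18 (adjusted p 0.938 and 0.926 in edgeR). Sqstm1 was at -0.032 (-0.086 to 0.021) without and -0.011 (-0.065 to 0.042) with the Q140 allele, and Atg7 at 0.0037 (-0.098 to 0.11) and 0.059 (-0.041 to 0.16). For all 10 genes in both comparisons the 95% interval lay within a 1.2-fold change in either direction. The difference between the 2 Q140 effects was called in 0% of genes (893 had an unadjusted p under 0.05 in edgeR, none of them among the 10; DESeq2 and limma voom called 0 of the 10). For Sqstm1 it was 0.021 (-0.054 to 0.097) and for Atg7 0.056 (-0.087 to 0.20). Leaving out the 4 mice of very low Polq, Atg7 in Q140 Polq+/- against Polq+/- was at 0.35 and Sqstm1 at 0.16.

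In cortex none of the 10 genes was called in any comparison. The shares of all genes called there were 0.348% in Q140 against wild type, 0.337% in Q140 Polq+/- against Polq+/-, 0.0442% and 0.0552% in the 2 comparisons of the Polq label, 0% for the difference between the Q140 effects (863 with an unadjusted p under 0.05), and 2.46% for all carriers against all others. DESeq2 and limma voom called none of the 10 either, and edgeR gave an unadjusted p under 0.05 to 1 of them in each of 2 comparisons. These were Optn in Q140 Polq+/- against Polq+/- (0.10 ± 0.049, adjusted p 0.466) and Sqstm1 in all carriers (0.028 ± 0.014, adjusted p 0.337). Sqstm1 in cortex ran from 425.0 to 473.5 CPM in wild type (median 461.3) and from 451.0 to 481.5 in Q140 (median 465.4). Atg7 ran from 22.6 to 28.1 CPM in wild type (median 25.2) and from 23.8 to 27.6 in Q140 (median 25.6). Both pairs of ranges overlapped. On log2(FPKM + 1) Sqstm1 passed in all carriers in cortex (0.042, adjusted p 0.0323).

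**Figure D4:**
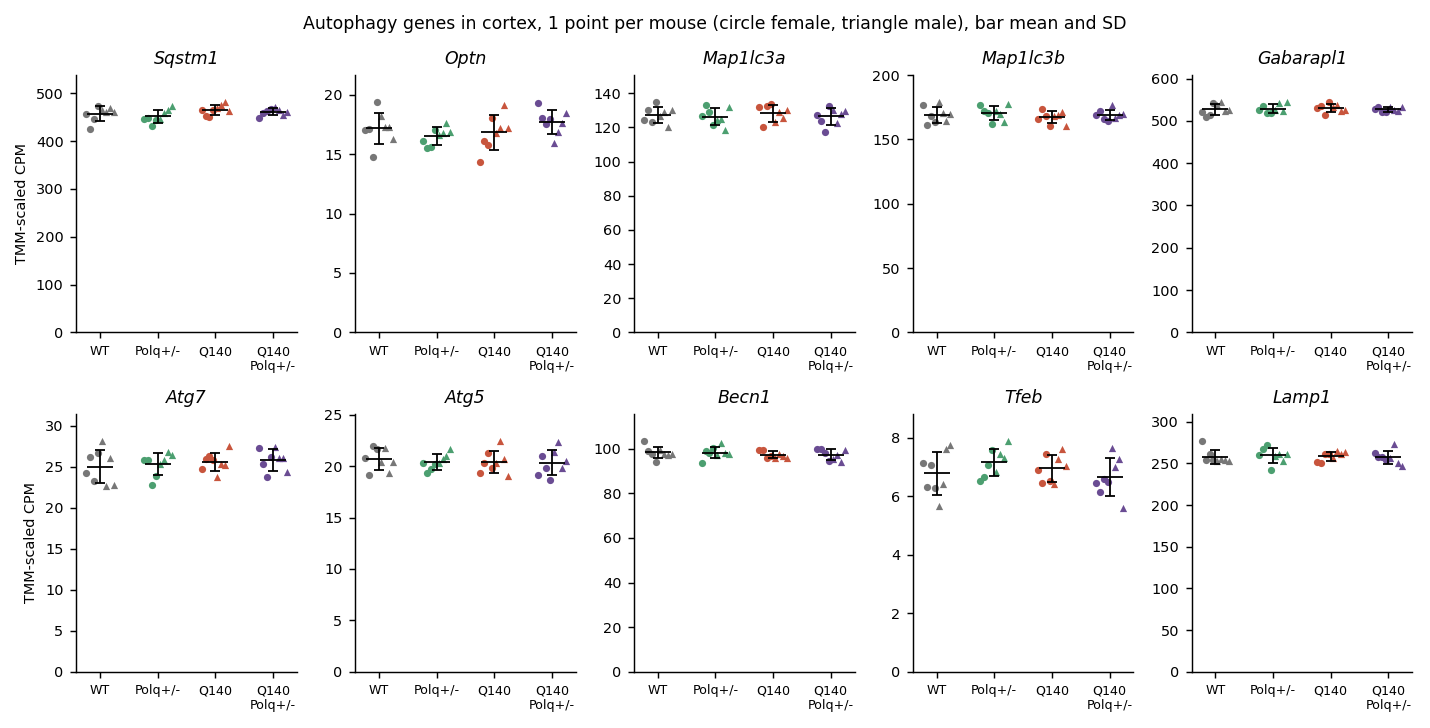
TMM-scaled CPM of each autophagy gene in cortex (vertical axes from 0) by genotype, with 1 point per mouse and the mean and SD as black bars (n = 8). The columns overlap in all 10 panels, Sqstm1 lying between 425.0 and 481.5 CPM in wild type and Q140.

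Because both tissues came from the same mice, the effect of carrying Q140 was compared between them with the mouse as a block. Such a difference was called in 32.1% of all genes tested. Of the 10 it was called for Sqstm1, which rose more in striatum by 0.12 ± 0.019 on the log2 scale (adjusted p 4.14e-06 in edgeR), and for Atg7, by 0.21 ± 0.039 (adjusted p 2.83e-05). The values were 0.12 and 0.21 without the 3 mice whose striatal libraries stood apart. For Gabarapl1 the difference was 0.0064 (-0.033 to 0.046), and for the other 7 it lay between -0.013 and 0.024. Among the listed lysosome genes Ctsf, a cathepsin, was called in cortex in all carriers (0.091).

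The tissues differed in level before any allele was considered, though striatal libraries lay in well columns 1 to 4 and cortical ones in columns 5 to 8, so tissue and well column cannot be told apart. In wild type, 77.2% of all genes tested differed between striatum and cortex, and 7 of the 10 did. Optn was lower in striatum, with 8.01 against 17.2 CPM and a log2 difference of -1.14. Map1lc3a and Atg7 were at -0.74 each, Map1lc3b at -0.59, Sqstm1 at -0.32 and Atg5 at -0.12. Tfeb was higher in striatum, by 0.33. Gabarapl1 (0.0064, -0.033 to 0.046), Becn1 (0.0057, -0.041 to 0.053) and Lamp1 (-0.029, -0.082 to 0.024) were not called, though Lamp1 passed (-0.073) without the 3 mice whose striatal libraries stood apart. Both genes that rose with Q140 in striatum were among those lower in wild-type striatum than in cortex, and they remained lower there with the allele: Sqstm1 averaged 417.6 CPM in Q140 striatum and 465.4 in Q140 cortex, and Atg7 18.0 and 25.6.

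Levels were ordered between genes only per length, by the deposited FPKM. In wild-type striatum Gabarapl1 was highest at 265.6 ± 6.02 FPKM (SD, n = 8), above 99.6% of the genes tested. Sqstm1 (110.6 ± 6.38) and Lamp1 (95.6 ± 8.86) followed with overlapping ranges, then Map1lc3a (65.3 ± 5.91). Map1lc3b (15.1 ± 0.992) and Becn1 (14.1 ± 0.792) overlapped, and Atg5 (8.19 ± 0.910) lay below them. Atg7 (2.17 ± 0.164), Optn (2.09 ± 0.301) and Tfeb (1.52 ± 0.211) closed the order, each overlapping the next. Gabarapl1 thus stood above Map1lc3a and Map1lc3b, and the enzyme Atg7 and the factor Tfeb were among the scarcest. In wild-type cortex the order was the same except that Map1lc3a (107.2 ± 4.04) stood above Lamp1 (95.7 ± 2.86), with overlapping ranges, and Optn (4.55 ± 0.360) above Atg7 (3.57 ± 0.298), also overlapping. Per length, Map1lc3a exceeded Map1lc3b 4.32-fold in wild-type striatum (± 0.232) and 4.33-fold in Q140 striatum (± 0.130). These ratios rest on exon lengths of 1181 bases for Map1lc3a and 7517 for Map1lc3b, which join all annotated exons. Whether the transcripts present have these lengths was not tested. In CPM, which is not divided by length, Map1lc3b was the higher, with 115.9 against 78.7 in wild-type striatum.

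**Figure D5:**
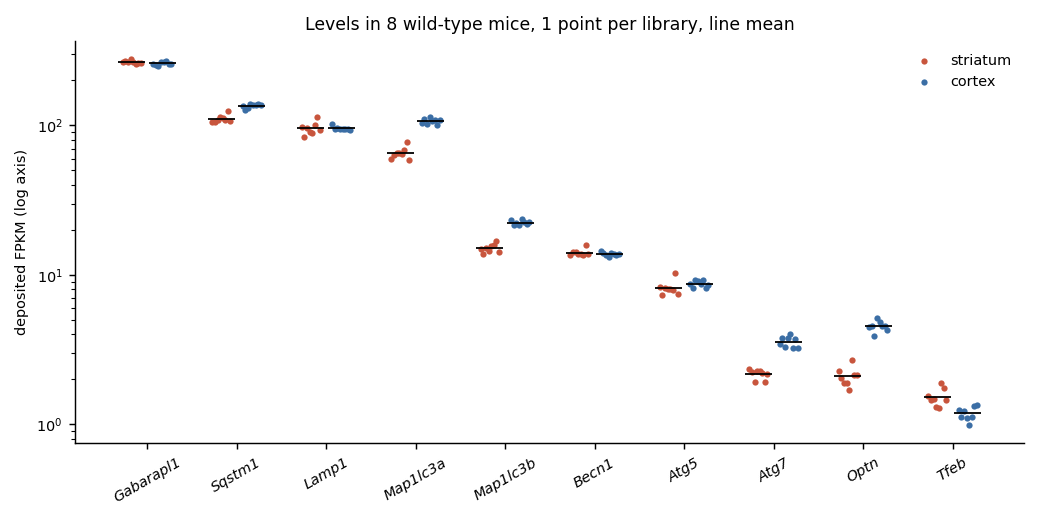
Deposited FPKM (vertical log axis) of the 10 autophagy genes in striatum (red) and cortex (blue) of the 8 wild-type mice, with 1 point per library and a line at the mean. Gabarapl1 is highest at 265.6 in striatum and 260.3 in cortex, and Tfeb lowest at 1.52 and 1.19.

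The sexes did not differ by edgeR in the effect of carrying Q140 for any of the 10 genes (0% of all genes called in striatum and 0% in cortex; 881 and 1102 genes had an unadjusted p under 0.05, none of them among the 10, and limma voom called 0 of the 10). The female minus male difference in striatum was -0.0084 (-0.086 to 0.069) for Sqstm1 and -0.031 (-0.17 to 0.11) for Atg7.

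For each gene the 3 genes with the most similar pattern were sought over 29 striatal libraries, without the 3 that stood apart and after genotype and sex means were removed, among 15248 genes with a mean of at least 1 CPM. Libraries share dissection and handling, and so the r values are descriptions. Lamp1 was nearest to Tspan2 (r = 0.86), Cnp (0.86) and Mog (0.85), all genes of myelinating oligodendrocytes, of which Cnp and Mog are on the marker list. Optn was nearest to Ngfr (0.84), Rab37 (0.80) and Lhfpl3 (0.80). Sqstm1 was nearest to Abi1 (0.82), Ppp2r1a (0.79) and Ttc19 (0.78), Atg7 to Slc6a8, F730043M19Rik and Atp2b3 (0.71 each), and Tfeb to A830036E02Rik (0.79), Nacc2 (0.78) and Atp1b2 (0.77). For Gabarapl1, Becn1, Map1lc3a, Map1lc3b and Atg5 the nearest genes were Add1 (0.76), Hs3st4 (0.73), Ndufb10 (0.73), Gm7027 (0.74) and Lhfpl5 (0.74).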

How the data were processed

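RNA of both tissues was made into libraries with a stranded TruSeq kit after RNeasy extraction, per the labels' protocols. STAR 2.7.5c, SAMtools 1.10, HTSeq 0.12.3 and the GRCm38 (mm10) build are named in the submitters' processing notes. The annotation, like HTSeq's strand setting, was not given in the sources used here. Raw counts per gene and FPKM values were deposited by the authors, and exon lengths in GENCODE M21 equalled the lengths behind the deposited FPKM of all 10 genes. The tables had 0 columns of other samples.

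The main test was edgeR's robust quasi-likelihood fit on the deposited counts (edgeR 4.0.16, R 4.3.3), with TMM scaling, a sex term and filterByExpr by genotype. Each tissue was fitted once over its 32 libraries, which left 18270 genes in striatum and 18116 in cortex. The comparison of tissues used all 64 libraries and 19091 genes, with the mouse as a block. The Benjamini-Hochberg adjustment ran over all genes tested. The script was tested on simulated data. FPKM were tested with limma 3.58.1 on log2(FPKM + 0.1) and log2(FPKM + 1). Further alternatives were DESeq2 1.42.0, its size factors, limma voom, no filter, other covariates and fewer libraries. Alternatives for the counts over the 8 lists were added after seeing the data.

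The 10 genes, the lists and the tests were chosen with earlier results of these data known. Named were the 10 genes, Polq, Htt as a check of the labels, up to 4 called genes of each list with the smallest p (all where 5 or fewer were called), and the 3 nearest genes by Pearson r of log2 CPM (prior count 3). Genes outside this rule that the text names from the lists (Ulk2, Rb1cc1, Atg3, Gabarap, Gabarapl2, Nbr1, Tax1bp1 and Tfe3) were chosen for their role after the values were seen, and the second value of a gene called in 1 comparison is given for completeness. Htt was lower in all carriers in cortex (-0.10, adjusted p 0.0134) and at -0.082 in striatum (adjusted p 0.0907). The listed Retreg1 appears in the files under an older symbol. Results of some listed genes are not reported here.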

Additional observations from a re-analysis of the deposited data

Results flagged for a closer look

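In 5 of 80 groups of 8 libraries (10 genes, 4 genotypes, 2 tissues), 1 library lay far from the other 7 by Dixon's gap test, and chance alone flags about 4. Wild-type male 3 had 24.01 CPM of Atg5 in striatum, the other wild types 17.8 to 19.9 CPM. Q140 Polq+/- female 3 had 15.9 CPM of Atg7 in striatum, the others of its group 18.5 to 20.4 CPM; the rise of Atg7 in that group was called with and without it. Q140 Polq+/- male 2 had 11.6 CPM of Optn (others 6.69 to 8.89) and 292.6 CPM of Lamp1 (others 248.8 to 265.3) in striatum, and it also had the highest sum of oligodendrocyte markers of its group, 7072 CPM, the next being 6061 CPM; their part in these values was not tested. Wild-type female 1 had 276.3 CPM of Lamp1 in cortex (others 252.6 to 261.0 CPM).

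The effect of carrying Q140 differed between striatum and cortex for Sqstm1, by 0.12 on the log2 scale, and for Atg7, by 0.21, in a test of the difference itself.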

How the results depend on the processing

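Across 5480 alternative values for single genes, 5451 kept their direction and their side of the threshold where a call was at stake, 27 passed it newly and 2 reversed, and 432 changes of sign concerned genes not called. Sqstm1 and Atg7 stayed called in both striatal Q140 comparisons under each of the 46 alternatives. On FPKM with a pseudocount of 0.1 or 1, the members called in striatum were 4 in Q140 against wild type, 6 in Q140 Polq+/- against Polq+/- and 7 in all carriers, and 1 in all carriers in cortex. Of all genes, 39.2% and 39.3% were called in the first of these striatal comparisons and 40% and 40.1% in the second. The shares for all carriers on FPKM are not reported here. Becn1 in all carriers in striatum reversed from -0.0034 to 0.061 and 0.058. These values lack scaling between libraries beyond their totals.

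The 89 listed genes gave, on FPKM, 40 and 40 higher and 6 and 6 lower in Q140 against wild type, and 39 and 40 higher and 6 and 6 lower in Q140 Polq+/- against Polq+/-. Over all genes, 74.7% and 74.8% of the calls were higher in the first comparison and 75.9% and 75.9% in the second. With fewer samples, the first comparison gave 9 higher and 13 lower in females alone, and 7 higher and 6 lower in males alone. The second gave 8 higher and 13 lower in females, 3 higher and 9 lower in males, and 9 higher and 12 lower without the 4 mice of very low Polq. In 4 of these 5 cases more listed genes were lower than higher, beside 18 and 16 and 17 and 17 with all libraries. Over all genes the first comparison gave 2083 higher and 2261 lower of 18425 in females, and 1551 and 1518 of 18246 in males. The second gave 2086 and 2145 in females, 1171 and 1419 in males, and 2412 and 2203 of 18561 without the 4 mice. All genes thus also leaned lower in females in both comparisons and in males in the second.

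Leaving out each library in turn, the number of the 10 genes called ranged from 2 to 3 in Q140 Polq+/- against Polq+/- and in all carriers in striatum, the third being Map1lc3a. Of the listed genes, 14 to 19 were higher and 14 to 18 lower in the first comparison, and 15 to 21 and 14 to 17 in the second.

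With the replicate number as a block, Sqstm1 was at 0.14 and 0.16 and Atg7 at 0.23 and 0.28, 2 genes were called in each comparison, and no call among the 10 genes changed. The numbers do not pair the mice: over 48 same-numbered pairs in striatum the correlation of deviations ran from -0.30 to 0.33 (median -0.038), and in cortex from -0.28 to 0.30 (median -0.023). Counts were lowest for Optn, with 207 to 388 per striatal library, where the intervals were widest.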
